A study of Equus caballus with 19 samples.

Results

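The genes described here are 9 components of the BMP, activin and growth differentiation factor (GDF) branch of TGF-β superfamily signalling, measured in equine tendon cells. They were chosen by name and role, with earlier results of these data known. They are the ligands BMP2, BMP4, BMP6, INHBA, GDF5 and GDF6, the secreted antagonists GREM1 and FST, and the decoy receptor BAMBI. All 9 were present among the 29196 gene names of each deposited table. Of these, 8 passed the minimum of 10 normalised counts in both batches, and GDF5 passed in neither.

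RNA sequencing was performed on wild-type (WT) adult tenocytes, the resident fibroblasts of tendon, isolated from the superficial digital flexor tendon of Thoroughbred horses and grown in 3-dimensional gels of bovine type I collagen in medium with fetal bovine serum. Each line is the expanded cells of a donor, and 8 lines gave 19 libraries, all harvested on day 14. The first batch held 5 lines (lines 1 to 5), each left as a control or stimulated with 1 nM interleukin-1β (IL-1β), the inflammatory cytokine. The second batch held another 3 lines (lines 6 to 8), each left as a control, stimulated with 1 nM IL-1β, or given 1 nM IL-1β together with 100 ng/ml of interleukin-1 receptor antagonist protein (IL1Ra), the natural competitor of IL-1β for its receptor. The gel holds expanded cells of 1 type outside the tendon, and medium with serum carries growth factors of its own.

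BMPs and several GDFs, GDF5 and GDF6 among them, are secreted dimers that bind type I and type II serine/threonine kinase receptors, which phosphorylate SMAD1, SMAD5 and SMAD9. Activins, which are dimers of inhibin beta subunits, signal through related receptors to SMAD2 and SMAD3. Secreted antagonists bind the ligands before they reach a receptor, and in tendon and at its junction with bone the branch is known for roles in cell fate, with GDF5, GDF6 and BMP4 studied in tendon and enthesis development and BMP2 in bone formation.

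The libraries summed to between 43400000 and 49200000 normalised counts in the first batch and between 25000000 and 34600000 in the second. The tenocyte label was checked against its markers: SCX, MKX, COL1A1, COL1A2, DCN and TNC were detected in every library, whereas TNMD was absent (0) from each of the 10 first-batch libraries. Of the 8 leukocyte markers only CD68 passed the filter in the first batch. PTPRC stood at 0 to 3.64 normalised counts in the 5 IL-1β libraries of that batch and at 0 in all 5 controls, and CD3E at 0 in both groups. The summed levels of marker lists moved with the treatment. The 11 tenocyte markers summed to between 1102350 and 1862200 normalised counts in controls and between 454851 and 884712 with IL-1β in the first batch, with no overlap. Of the 10 tested, 7 fell past the thresholds given below (SCX, MKX, COL1A1, COL1A2, THBS4, COMP and TNC), and the median log2-fold change of the 10 was -2.55. FMOD fell without passing (-2.03). DCN and PDGFRA went the other way, higher in all 5 lines (log2-fold changes 0.73 and 0.75) and in all 3 lines of the second batch, and were not DE. In the second batch these sums overlapped, at 283684 to 920808 in controls, 320702 to 481664 with IL-1β and 168999 to 850606 with IL1Ra added. The 5 mural cell markers summed to 11078 to 19133 in controls and 3009 to 4374 with IL-1β in the first batch, and 4 of 5 fell past the thresholds. The 8 leukocyte markers summed to 58.3 to 2076 and 311 to 3713, mostly CD68 and CD14, of which CD68 rose and CD14 was below the filter. The 4 cartilage markers summed to 7423 to 42947 and 71.2 to 1140, and the 5 endothelial markers to 22.8 to 50.2 and 17.5 to 91.0. In the second batch the mural sums were 3294 to 8116 in controls, 930 to 2322 with IL-1β and 1313 to 2510 with IL1Ra added, and the leukocyte sums 234 to 1269, 683 to 3056 and 736 to 2053, respectively. There CD68 was higher with IL-1β in 3 of 3 lines. Within lines, CD14 changed by -0.05 to 10.30 and PTPRC by -0.99 to 2.90 on the log2 scale with IL-1β. The part of these markers in the results below was not tested, and in bulk RNA fewer cells of a type and less RNA per cell cannot be told apart.

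Stimulation with IL-1β raised the transcripts of BMP2, FST and BAMBI and lowered that of GREM1 in the first batch, while the 3 ligands BMP4, BMP6 and INHBA did not pass the test. The largest of the 4 changes was in FST, 4.92-fold higher, and GREM1 fell to 0.355 of its control level. A gene was called differentially expressed (DE) at an adjusted p under 0.05 in limma and a log2-fold change of 1 or more in either direction. By this rule 4 of the 8 tested members were DE, 3 upward and 1 downward, against 12.8% of all 14719 genes tested. Because the members were chosen with earlier results of these data known, this comparison is a description and no test. The count of DE members was 2 without line 1 or line 3 and 1 without line 4, when only GREM1 was DE. The median log2-fold change of the 8 members was 0.21, against -0.0034 for all genes tested. With the tenocyte line added to the model as a block, 4 members were again DE, namely BMP2 and FST upward and GREM1 and GDF6 downward, against 16.2% of all genes. The control and IL-1β libraries did not overlap for 1 of the 8 members, GREM1, against 19.5% of all genes.

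**Figure D1:**
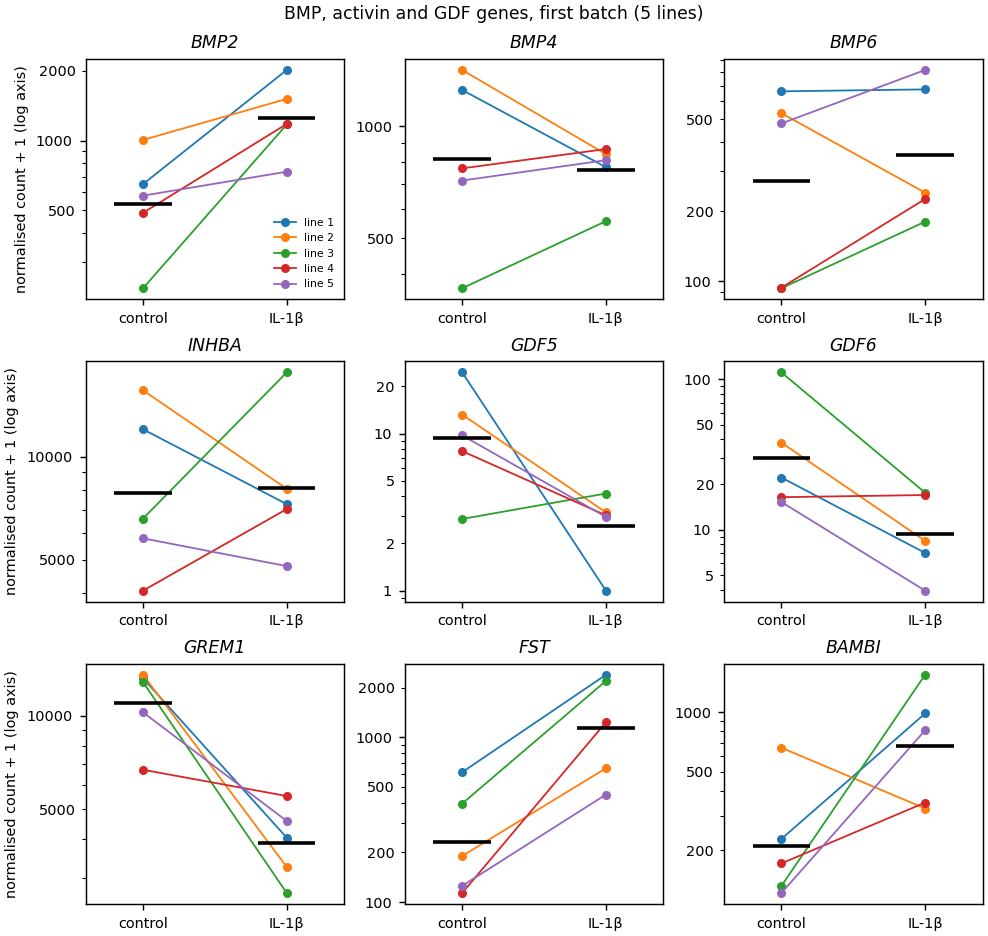
Normalised count + 1 (log axis) of each of the 9 genes in the 10 first-batch libraries, control on the left and IL-1β on the right. Each coloured line joins the libraries of 1 tenocyte line, and black bars mark the mean on the log2 scale. All 5 lines rose in BMP2 and FST and all 5 fell in GREM1, and only GREM1 has groups that do not overlap.

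Among the ligands, BMP2, a potent inducer of bone and cartilage formation, was the only tested one that was DE. Its normalised counts in lines 1 to 5 were 648, 1006, 229.9, 487 and 578 in controls and 2016, 1513, 1173, 1179.7 and 734 with IL-1β. Every line was higher with IL-1β, although the groups overlapped because the control of line 2 exceeded the stimulated library of line 5. The means were 590.0 ± 282 and 1323 ± 476 normalised counts (SD, n = 5 each), a log2-fold change of 1.24 with a standard error (SE) of 0.37 and an adjusted p of 0.032. The call was lost without line 1, 3 or 4, with adjusted p values of 0.0857, 0.0679 and 0.0972.

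BMP4, a close relative of BMP2 with a role in patterning the tendon attachment, had 1251, 1416, 365, 769 and 713 normalised counts in the controls of lines 1 to 5 and 775, 840.2, 554, 867 and 809 in the matching IL-1β libraries. It was higher in 3 lines and lower in the 2 lines with the highest controls. The SD was 125 in IL-1β libraries against 426 in controls, so the stimulated libraries sat closer together than the controls. The log2-fold change was -0.10 (95% interval -0.82 to 0.62, adjusted p = 0.856).

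BMP6, which is best known for inducing hepcidin in iron homeostasis and also acts in bone, gave 659.8, 531, 92.1, 92.6 and 479 normalised counts in controls and 673, 239.9, 179.6, 225 and 816 with IL-1β. Lines 3 and 4 had low controls, under 100 normalised counts, and the controls of the other 3 lines lay between 479 and 660. IL-1β libraries were higher in 4 of 5 lines, with line 2 moving down, and the log2-fold change of 0.38 had an interval of -1.13 to 1.88 (adjusted p = 0.72).

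INHBA encodes the beta A subunit that forms activin A. Its normalised counts were 12033, 15647, 6593, 4058 and 5772 in controls and 7267, 8056, 17649, 7029 and 4787 with IL-1β. The lines split, with 3 lower and 2 higher, and line 3 had both the steepest rise and the highest stimulated value. Means were 8820.5 ± 4844 and 8958 ± 5008 (SD, n = 5 each), a log2-fold change of 0.05 with an interval of -0.86 to 0.96 and an adjusted p of 0.943.

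GDF5 and GDF6, relatives of the BMPs that act in joint and tendon formation, were near the lower limit of detection. GDF5 stood at 23.5, 12.2, 1.86, 6.73 and 8.74 normalised counts in the controls of lines 1 to 5 and at 0, 2.15, 3.15, 2.01 and 1.95 with IL-1β. It was lower in 4 of 5 lines, and line 3, the lowest control, was the exception. A two-sided exact permutation test on log2(normalised count + 1) gave p = 0.0397 for a mean difference of -1.85, where the smallest p that 252 arrangements allow is 0.00794. The test did not pair the libraries by line, and no paired test was run. After adjustment over the 4 comparisons of GDF5 the value was 0.159.

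For GDF6 the controls held 21.2, 36.9, 110.0, 15.5 and 14.3 normalised counts and the IL-1β libraries 6.02, 7.44, 16.6, 16.0 and 2.94. Counts fell in 4 lines and line 4 was level, and the control of line 3 stood well above the rest. The log2-fold change was -1.68 (SE 0.63) with an adjusted p of 0.0696, so GDF6 was not DE. With the tenocyte line as a block the adjusted p was 0.019, and GDF6 was then DE. Over all alternatives its adjusted p ranged from 0.019 to 0.191.

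The secreted antagonists moved in opposite directions. GREM1, which encodes gremlin 1 and binds BMP2 and BMP4, had 13198, 13548, 12832, 6697 and 10252 normalised counts in controls and 4047, 3257, 2684, 5512 and 4581 with IL-1β. It was lower in every line, and the highest stimulated library, that of line 4, lay below the lowest control, which was also line 4. Means were 11306 ± 2885 and 4016 ± 1108 (SD, n = 5 each), a log2-fold change of -1.49 (SE 0.24, adjusted p = 0.00143). Under all alternatives tried for the first batch GREM1 kept its call.

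FST encodes follistatin, which binds and neutralises activins and also binds some BMPs. Its normalised counts were 613, 189, 395, 112 and 124 in controls and 2397, 648, 2199.9, 1234 and 448 with IL-1β. Every line rose, by 1.77 to 3.44 on the log2 scale, while the groups overlapped because the control of line 1 exceeded the stimulated library of line 5. The fitted log2-fold change was 2.30 (SE 0.59, adjusted p = 0.0156). Without line 4, which had the lowest control and the steepest rise, the adjusted p was 0.0698.

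BAMBI encodes a pseudoreceptor that resembles a type I receptor but lacks the kinase domain, and so damps BMP, activin and TGF-β signals. It was measured at 228, 661, 131, 171 and 121 normalised counts in controls and 985, 325, 1547, 348 and 809.6 with IL-1β. Line 2 had the highest control and moved down, and the other 4 lines moved up, line 3 by 3.55 on the log2 scale. The log2-fold change was 1.68 (SE 0.55, adjusted p = 0.0431). This call did not hold with the line as a block (adjusted p = 0.0668), with no filter on low values (0.0503) or with eBayes run without a trend (0.0549). It was also lost without line 1, 3, 4 or 5, at 0.125, 0.163, 0.0714 and 0.171, and over all alternatives the adjusted p ranged from 0.00795 to 0.171.

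Ligand and antagonist were also set against each other within each line. The ratio of BMP2 to GREM1 normalised counts increased by 10.1, 6.25, 24.3, 2.94 and 2.84 times in lines 1 to 5. The ratio of FST to INHBA increased by 6.46, 6.62, 2.08, 6.29 and 4.32 times. Both ratios were higher with IL-1β in all 5 lines, with line 3 giving the largest change of the first ratio and the smallest of the second. These are descriptions of a transcript ratio, with no test, and they reuse the changes in the members given above.

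The second batch asked whether the same response occurred in other lines, and whether IL1Ra altered it. BMP2 was again higher and GREM1 again lower in all 3 lines, and FST and BAMBI were also higher in all 3. Without the line in the model, 0 of the 8 tested members were DE, against 0.341% of 16705 genes. An unadjusted limma p under 0.05 was reached by 3 members (BMP2, GREM1 and BAMBI) and by 1907 of the 16705 genes. With the line as a block, 2 members were DE, BMP2 upward and GREM1 downward, against 5.18% of all genes. In that model 4 members had an unadjusted limma p under 0.05 (the same 3 and FST), as did 3708 of the 16705 genes. The control and IL-1β groups did not overlap for 4 of the 8 members, BMP2, GREM1, FST and BAMBI, against 16.4% of all genes. Whether the response differed between the batches was not tested, as each test stayed within a batch.

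**Figure D2:**
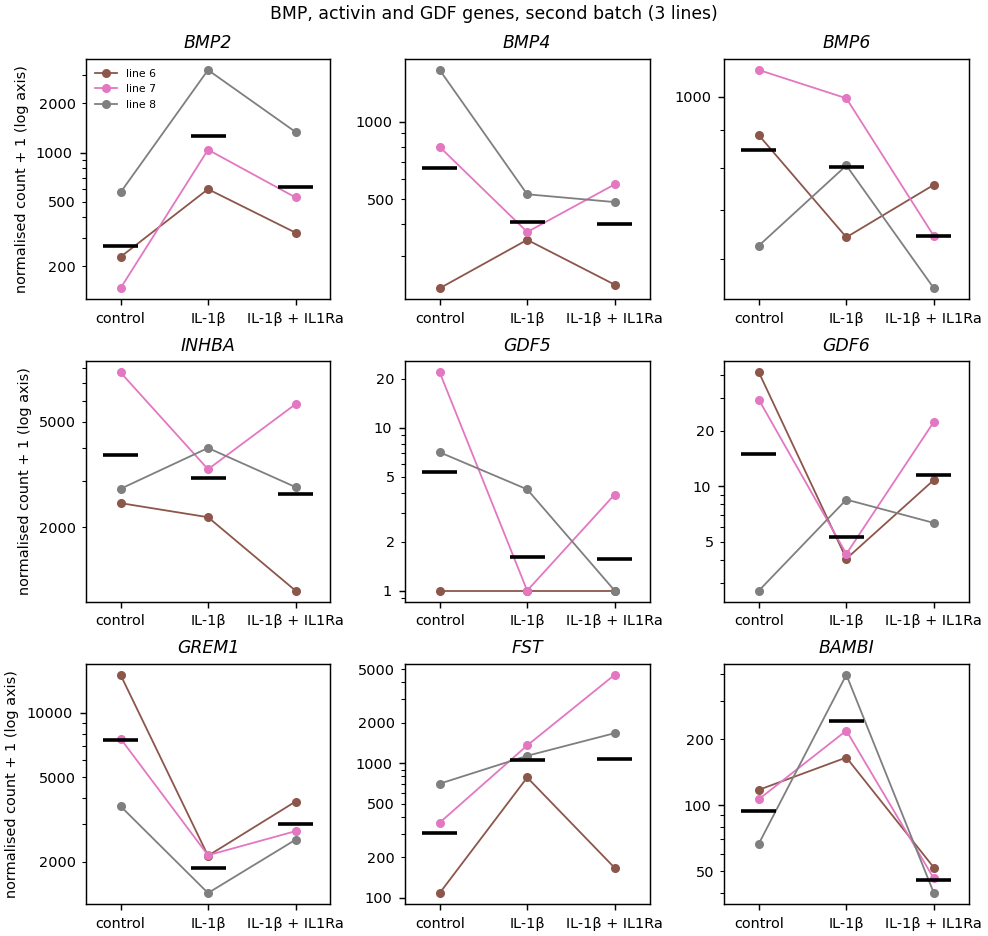
Normalised count + 1 (log axis) of each of the 9 genes in the 9 second-batch libraries under control, IL-1β and IL-1β + IL1Ra. Each coloured line joins the libraries of 1 tenocyte line (lines 6, 7 and 8), and black bars mark the mean on the log2 scale. In all 3 lines BMP2 rises and comes part of the way down, GREM1 falls and comes part of the way up, and BAMBI rises and then drops below its control.

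BMP2 in lines 6, 7 and 8 stood at 227, 146 and 568 normalised counts in controls, 595, 1039 and 3209.6 with IL-1β and 321, 529 and 1336 with IL1Ra added. Line 8 was the highest under each condition, and every line was ordered control, IL-1β + IL1Ra, IL-1β from low to high. For IL-1β against control the log2-fold change was 2.24 (SE 0.77) with an adjusted p of 0.309, or 0.0105 with the line as a block, and the range over all alternatives was 0.0105 to 0.752. IL-1β + IL1Ra was higher than control by 1.19 (adjusted p = 1.00). Against IL-1β alone the log2-fold change was -1.04 (adjusted p = 1.00), lower in 3 of 3 lines. Expressed within each line, the log2 difference from control that was present with IL1Ra amounted to 35.8, 65.6 and 49.4% of that with IL-1β alone.

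GREM1 had 15097, 7574 and 3649 normalised counts in controls, 2134, 2146 and 1426 with IL-1β and 3833, 2784 and 2537 with IL1Ra added. The 3 stimulated libraries were the lowest of the 9, and those with IL1Ra lay above all of them. The log2-fold change for IL-1β against control was -2.00 (SE 0.47), with an adjusted p of 0.141 without and 0.015 with the line as a block and a range over all alternatives of 0.015 to 0.667. IL-1β + IL1Ra remained 1.32 below control on the log2 scale (adjusted p = 0.822), lower in 3 of 3 lines, and stood 0.68 above IL-1β alone (adjusted p = 1.00), higher in 3 of 3 lines. The share of the log2 difference from control that was present with IL1Ra was 70.1, 79.4 and 38.7% in lines 6, 7 and 8. Both differences in this share use the same control library of a line. Other members differed, with shares of 21.8, 191 and 181% for FST and -241, -116 and -29.3% for BAMBI.

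BAMBI was lowest in the libraries with IL1Ra. Its normalised counts were 117, 106 and 65.9 in controls, 164, 219 and 394 with IL-1β and 51.0, 45.4 and 38.8 with IL1Ra added. The 3 groups did not overlap, with IL-1β highest and IL-1β + IL1Ra lowest, below the controls in every line. The log2-fold changes were 1.36 for IL-1β against control (SE 0.40, adjusted p = 0.223), -1.04 for IL-1β + IL1Ra against control (adjusted p = 0.822) and -2.41 for IL-1β + IL1Ra against IL-1β (SE 0.40, 95% interval -3.32 to -1.50). None of the 3 passed over all genes, and the adjusted p of the last was 0.625. Without the line as a block, BAMBI alone among the 8 members had an unadjusted limma p under 0.05 for IL-1β + IL1Ra against IL-1β. Of all 16705 genes, 464 did.

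FST had 108, 362 and 706 normalised counts in controls, 785, 1360.1 and 1139 with IL-1β and 166, 4561 and 1678 with IL1Ra added. All 3 lines were higher with IL-1β than in control. With IL1Ra, line 6 came back near its control, whereas line 7 reached the highest value of the 9 libraries and line 8 also stood above its IL-1β library. For IL-1β against control the log2-fold change was 1.82 (SE 1.14, adjusted p = 0.63), and for IL-1β + IL1Ra against IL-1β it was 0.02, with an interval of -2.59 to 2.64 (adjusted p = 1.00). Without line 7 the latter was -0.84, a change of sign.

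The other ligands showed no common direction in the second batch. BMP4 stood at 224, 797 and 1587 normalised counts in controls, 346, 371 and 521 with IL-1β and 231, 569 and 486 with IL1Ra added. As in the first batch, the 2 lines with the higher controls were lower with IL-1β and the line with the lowest control was higher. BMP6 had 885, 1088 and 624 normalised counts in controls, 641, 995 and 804 with IL-1β and 757, 644 and 546 with IL1Ra added. It was lower in 3 of 3 lines with IL1Ra than in control, by 0.39 on the log2 scale (adjusted p = 1.00). INHBA had 2470.1, 7686 and 2796 normalised counts in controls, 2186, 3314 and 3987 with IL-1β and 1155, 5831 and 2839.9 with IL1Ra added. Lines 6 and 7 were lower with IL-1β and line 8 was higher. The log2-fold changes for IL-1β against control were -0.69 for BMP4 (95% interval -2.22 to 0.83), -0.08 for BMP6 (-0.68 to 0.53) and -0.29 for INHBA (-1.73 to 1.15), none of them DE.

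GDF6 in the second batch had 40.3, 28.4 and 1.73 normalised counts in controls, 3.06, 3.31 and 7.47 with IL-1β and 9.82, 21.3 and 5.33 with IL1Ra added. Lines 6 and 7 fell with IL-1β and were intermediate with IL1Ra, while line 8, with the lowest control, moved the other way. The log2-fold change for IL-1β against control was -1.49 (95% interval -3.88 to 0.89, adjusted p = 0.688). GDF5 was listed at 0, 20.9 and 6.07 in controls, 0, 0 and 3.19 with IL-1β and 0, 2.89 and 0 with IL1Ra. Line 6 was at 0 under every condition, and the two-sided exact permutation test for IL-1β against control gave p = 0.4, where 20 arrangements allow no p below 0.1.

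No member passed the thresholds in either comparison with IL1Ra. For IL-1β + IL1Ra against control, 0 of the 8 tested members were DE with limma, against 0.012% of all genes (0.251% with the line as a block). An unadjusted limma p under 0.05 was reached by 2 members, GREM1 and BAMBI, and by 948 of all 16705 genes. With the line as a block it was reached by 4 members, BMP2, GREM1, FST and BAMBI, and by 2233 genes. Groups did not overlap for 1 member, BAMBI, against 11.8% of all genes. For IL-1β + IL1Ra against IL-1β, 0 of 8 members were DE, against 0% of all genes (0.00599% with the line as a block). Here 1 member, BAMBI, had an unadjusted limma p under 0.05, as did 464 of all 16705 genes. With the line as a block 2 members did, BMP2 and BAMBI, at adjusted p of 0.379 and 0.184 in limma, and so did 1400 genes. In that comparison groups did not overlap for 2 members, GREM1 and BAMBI, against 6.47% of all genes. These comparisons share their control or IL-1β libraries with the comparison of IL-1β against control.

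**Figure D3:**
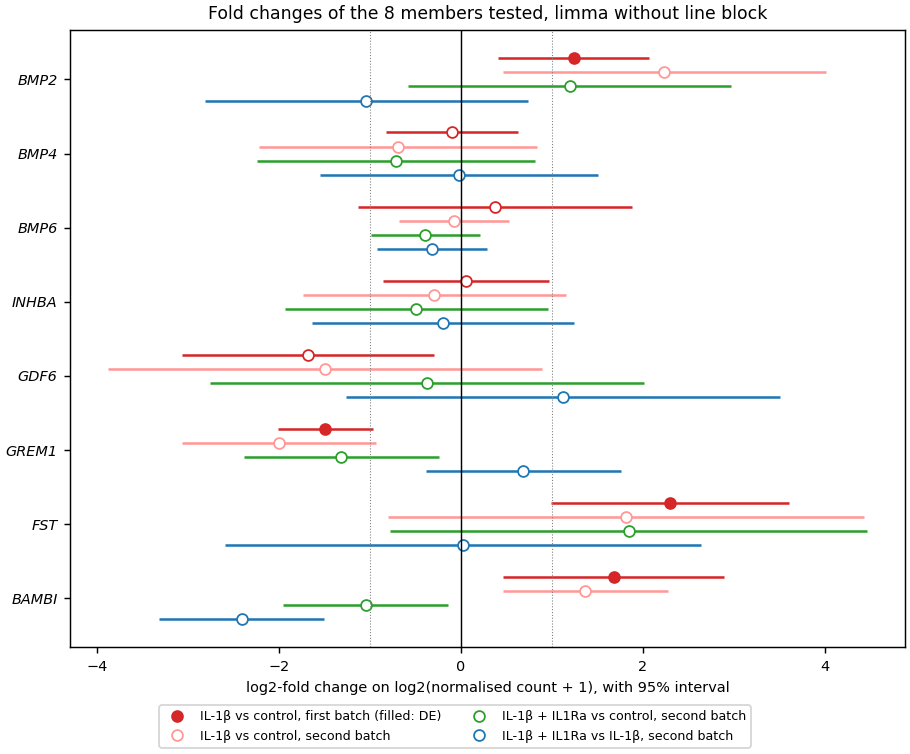
Log2-fold changes on log2(normalised count + 1) of the 8 tested members in the 4 comparisons, with 95% intervals from limma without the line as a block; filled points are DE and dotted lines mark a log2-fold change of 1 in either direction. The 4 filled points are BMP2, GREM1, FST and BAMBI in the first batch, and the interval of BAMBI for IL-1β + IL1Ra against IL-1β runs from -3.32 to -1.50.

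Within lines 6, 7 and 8, the ratio of BMP2 to GREM1 normalised counts was 18.4, 25.0 and 14.4 times that of the control with IL-1β and 5.55, 9.82 and 3.38 times with IL1Ra added. It was thus lower with IL1Ra than without it in each line, yet above control in each. This order follows from the BMP2 and GREM1 values given above and adds no evidence of its own. The ratio of FST to INHBA was 8.17, 8.70 and 1.13 times that of the control with IL-1β, line 8 being close to its control. With IL1Ra added this ratio was 3.29, 16.6 and 2.34 times that of the control.

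The rest of the pathway was described from lists grouped by role. Among 16 other secreted antagonists and binding proteins, 11 were tested in the first batch, of which 1 rose and 3 fell, against 12.8% of all genes that were DE in either direction. The 3 were relatives of chordin, proteins that sequester BMPs: CHRD went from 457 ± 206 to 76.3 ± 78.3 normalised counts (log2-fold change -3.26, adjusted p = 0.0162), CHRDL1 from 2259 ± 755 to 786 ± 511 (-1.76, 0.0194) and CHRDL2 from 377 ± 309 to 27.4 ± 18.6 (-3.44, 0.00795). BMPER, a chordin-like protein that can both inhibit and promote BMP signals, rose from 20.4 ± 18.1 to 125 ± 75.3 (2.66, 0.00684). CHRDL1 lost its call without line 1 (adjusted p = 0.0779) and CHRD without line 5 (0.0762). The median of the 11 was -0.73, against -0.0034 for all genes. With the line as a block NOG, the gene of noggin, was also DE downward, and in the second batch BMPER was DE upward and CHRD and CHRDL2 downward.

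Other ligands were mostly below the filter, with 5 of 22 tested in the first batch and 1 of these DE, against 12.8% of all genes. INHBE, the inhibin beta E subunit, fell in all 5 lines, from 170.1 to 1693 normalised counts in controls to 6.32 to 26.8 with IL-1β (log2-fold change -5.22, SE 0.64, adjusted p = 3.62e-04). In the second batch the 3 lines did not share that direction, with 2 lower and 1 higher. With the line as a block INHA was DE downward in the first batch, and INHBB was DE downward in the second batch.

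Receptors and co-receptors gave 2 DE genes of 13 tested in the first batch, against 12.8% of all genes. RGMA, a BMP co-receptor, rose from 49.3 ± 21.2 to 179 ± 74.6 normalised counts (log2-fold change 1.82, adjusted p = 0.0128), and NEO1, the receptor of the RGM proteins, from 5079.5 ± 1688 to 10606 ± 4449 (1.00, 0.032). The other 11 were not DE, and the median of all 13 was -0.11. Among these 11, ACVR1, BMPR2, BMPR1B, BMPR1A and ENG were lower in 5 of 5 lines. Their log2-fold changes were -0.88, -0.65, -0.68, -0.27 and -0.35, short of the fold threshold. The groups of ACVR1 did not overlap, which held for 19.5% of all genes. ACVR1B was higher in 5 of 5 lines (0.75). In the second batch ACVR1 and BMPR2 were lower and ACVR1B higher in 3 of 3 lines, whereas BMPR1A, BMPR1B and ENG were mixed. RGMA was not called without line 2 or 5 (adjusted p = 0.0524 and 0.0597). NEO1, which sat at the fold threshold, was not called without line 2, 4 or 5 (0.0668, 0.118 and 0.131) or after rescaling to equal sums or upper quartiles, where its log2-fold change was 0.98. ACVRL1 was DE upward in the first batch with the line as a block, and RGMA was so in the second. Among 8 SMADs and ligases, 1 was DE in the first batch, against 12.8% of all genes. This was SMURF1, an E3 ubiquitin ligase that targets BMP SMADs and receptors, which rose from 2892 ± 473 to 6062 ± 1012 normalised counts (log2-fold change 1.07, adjusted p = 4.55e-04). Its groups did not overlap, which held for 19.5% of all genes and in this list also for SMAD1 and SMAD2, both higher. SMAD5 and SMAD9 were lower in 5 of 5 lines, and none of these SMADs was DE. Without line 3 the log2-fold change of SMURF1 was 0.895, under the threshold. In the second batch SMURF1 was also higher in 3 of 3 lines, at 1322 ± 126 in controls and 2914 ± 626 with IL-1β (SD, n = 3 each), and was DE with the line as a block (log2-fold change 1.12, adjusted p = 0.0254). Without the block the adjusted p was 0.0823, and over all alternatives it ranged from 0.0254 to 0.909.

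The transcriptional targets of BMP signalling gave 1 DE gene of 10 in the first batch, against 12.8% of all genes. ATOH8, a basic helix-loop-helix factor, fell from 1703 ± 499 to 562 ± 128 normalised counts with no overlap (log2-fold change -1.58, adjusted p = 0.00116). Groups without overlap were seen for 19.5% of all genes. MSX2 was also DE downward with the line as a block. The classical targets ID1, ID2 and ID3, singled out here after their values were seen, had log2-fold changes of 0.05 (-0.37 to 0.48), 0.15 (-0.13 to 0.43) and 0.19 (-0.36 to 0.74), with 95% intervals in parentheses and adjusted p values of 0.866, 0.422 and 0.617. ID4 had a log2-fold change of -0.32 (-0.88 to 0.25) and an adjusted limma p of 0.393. In the second batch 0 of the 10 targets were DE for IL-1β against control in limma with or without the line as a block, and 0 had an unadjusted p under 0.05. Of all 16705 genes, 1907 had such a p without the block and 3708 with it. For IL-1β + IL1Ra against control 9 of 10 targets had a negative log2-fold change, with a median of -0.45 against 0.0095 for all genes. Without the block 1 had an unadjusted limma p under 0.05, as did 948 of all 16705 genes. With the block 3 did, as did 2233 genes. For IL-1β + IL1Ra against IL-1β 8 of 10 targets were negative, with a median of -0.31 against 0.0088 for all genes. There 0 had such a p without the block and 2 with it, against 464 and 1400 of all genes. ID1, ID3, ID4 and SMAD7 were lower in 3 of 3 lines of that comparison, and 0 targets were DE in either comparison.

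Of 7 enzymes that process the ligands and their antagonists, 1 rose and 2 fell in the first batch, against 12.8% of all genes. TLL1, a tolloid-like protease that cleaves chordin, fell from 4679 ± 835 to 259.7 ± 142 normalised counts (log2-fold change -4.34, adjusted p = 3.50e-05), and PCSK6, a proprotein convertase, fell from 1291 ± 640.1 to 96.1 ± 28.6 (-3.64, 1.52e-04). PCSK5, another convertase, rose from 2348 ± 875 to 8227 ± 4092 (1.78, 0.00257). FURIN, PCSK7, BMP1 and TLL2 were not DE. TLL1 and PCSK6 were DE downward in the second batch with the line as a block, at log2-fold changes of -3.47 and -2.88 (adjusted p = 0.0178 and 0.0349). Over all alternatives the adjusted p ranged from 0.0178 to 0.842 for TLL1 and from 0.0349 to 1.00 for PCSK6. Without the block 0 genes of these lists were DE in limma for IL-1β against control in the second batch, with 8 at an unadjusted p under 0.05. Of all 16705 genes, 1907 had such a p. The genes called only with the block were named after their values were seen.

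**Figure D4:**
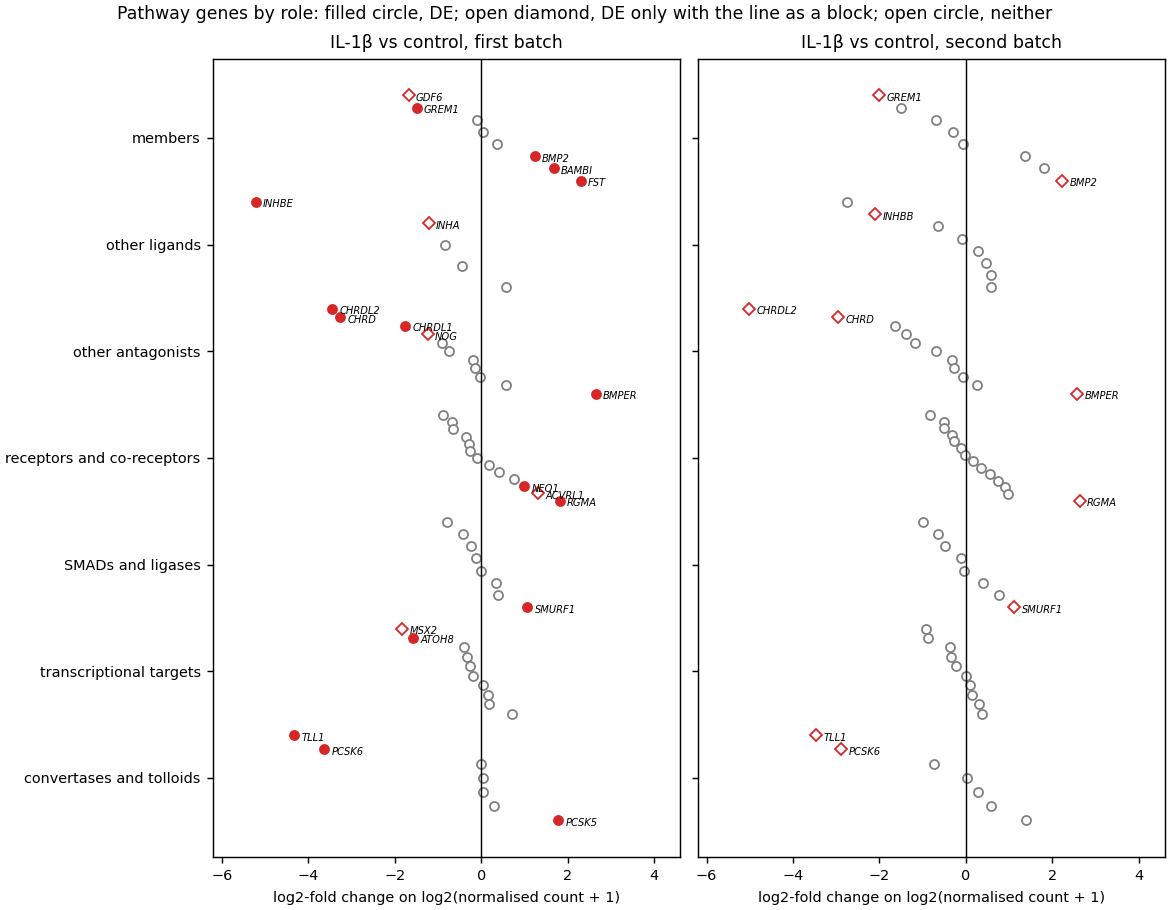
Log2-fold changes on log2(normalised count + 1) of all tested genes in the lists by role, IL-1β against control, first batch on the left and second batch on the right. Filled circles are DE, open diamonds are DE only with the line as a block, and open circles are neither. All filled circles are in the first batch, and those outside the members run from INHBE at -5.22 to BMPER at 2.66.

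Finally, the within-line log2 ratio of IL-1β to control of each member over the 8 lines was compared with that of 12351 candidate genes, by the mean absolute difference. For BMP2 the closest gene was PTPRU, a receptor tyrosine phosphatase, at 0.255 log2 units, and for GREM1 it was FXYD6 at 0.407. FST was closest to LIMD2 at 0.376, BAMBI to LGR6 at 0.602 and INHBA to QRICH2 at 0.232. BMP4 was closest to PROB1 at 0.242, BMP6 to LAMC1 at 0.298 and GDF6 to CD38 at 0.617. BAMBI and GDF6 had the least close partners, and the values are a description over the 8 lines that share 2 separately normalised tables.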

How the data were processed

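Values were DESeq2-normalised counts (unit: signal, not whole reads), which the authors deposited in 1 table per batch. Per the submitters' processing notes the tools were FastQC, MultiQC, Salmon, R 4.2.1 and DESeq2 1.36, and the study's methods name the EquCab3.0 horse genome. Because each batch was normalised separately, tests stayed within a batch. Whole reads could not be recovered: 64.0 to 77.3% of low values were whole multiples of a library's step within 0.1, so no count model was run. All columns were mapped (0 unmapped), and 0 pairs of libraries were identical.

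The values were analysed as log2(normalised count + 1) in limma 3.58.1 (R 4.3.3; lmFit, eBayes with trend, two-sided, Benjamini-Hochberg over all genes tested), on genes that reached 10 normalised counts in 5 or more first-batch libraries (14719 genes) or 3 or more second-batch libraries (16705 genes), and the 3 conditions of the second batch shared 1 estimate of the spread. Fold changes on this scale understate low genes. GDF5 was given exact permutation tests without pairing by line (scipy 1.17.1). The limma fit without the line as a block was tried on simulated data with independent noise and no line effect. The fit with the block was not tried there. Numbers on libraries name the tenocyte line and so pair the samples: deviations from the group means of same-line libraries correlated at 0.35 to 0.58 (5 first-batch pairs) and 0.54 to 0.79 (9 second-batch pairs). The model without the line leaves out this pairing, and was used because the study's methods name no line block. Blocking on the line was an alternative, beside other pseudocounts, filters, scalings, eBayes without trend, and leaving out each line. The depth in reads per library is not given by the normalised values. The members and lists were chosen with earlier results of these data known. Named genes were the 9 members, the listed pathway genes that were DE, some that were not, cell type markers, and the closest gene to each member. All 9 members matched a symbol in RefSeq's horse gene table; no sequences or coordinates were used here.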

Additional observations from a re-analysis of the deposited data

Results flagged for a closer look

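BMP4 in line 3 with IL-1β stood apart from the other 4 stimulated libraries of the first batch. It had 554 normalised counts, and on the scale of log2(normalised count + 1) its gap to the nearest library was 0.749 of the range of the group, above the critical value of 0.71 for 5 samples. On the normalised counts themselves the gap was 0.705 of the range, below that value. Chance gives such a gap in about 1 of 20 groups, and 16 groups were tested. Line 3 also had the lowest BMP4 control of that batch, at 365 normalised counts. No explanation was tested.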

How the results depend on the processing

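Of 388 alternative values of the members' fold changes, 360 kept direction and side of the thresholds, 11 lost a call, 3 gained one and 14 changed sign. GREM1 kept its call in the first batch under every alternative run. The count of DE members in the first batch ranged from 1 (without line 4) to 4 (without line 2) when 1 line was left out, and in the second batch it was 2 with the line as replicate block instead of 0. For IL-1β against control in the second batch 57 genes were DE, but 34 without trend, 865 with the replicate block and 32 when only the 2 conditions were fitted, and 0 to 354 with 1 line left out (354 without line 6, 0 without line 7 or 8). For IL-1β + IL1Ra against control they numbered 2, but 1 after rescaling to equal sums, 42 with the block, 0 in the 2-condition fit, and 0 to 63 with 1 line left out (63 without line 6, 0 without line 7 or 8). For IL-1β + IL1Ra against IL-1β they numbered 0 (464 genes at an unadjusted p under 0.05), 1 with the block and 0 to 10 with 1 line left out (10 without line 6). Rescaling to equal sums moved the median of all genes to -0.19 for IL-1β against control in the second batch and to 0.11 for IL-1β + IL1Ra against IL-1β, and in the former the rising share of called genes went from 78.95% to 61.4%.

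All 14 sign changes were in comparisons in which the member was not DE. With 1 line left out, log2-fold changes in the first batch ran from -0.27 to 0.0661 for BMP4 and from -0.29 to 0.30 for INHBA. For IL-1β against control in the second batch they ran from -0.30 to 0.12 for BMP6 and from -0.69 to 0.17 for INHBA, and for IL-1β + IL1Ra against control from -1.16 to 0.41 for GDF6. For IL-1β + IL1Ra against IL-1β they ran from -0.34 to 0.26 for BMP4, from -0.70 to 0.16 for INHBA and from -0.84 to 1.15 for FST, and BMP4 was 0.0798 with equal sums and 0.0044 with equal upper quartiles. Beyond the calls given above, the replicate block changed no member's call. For the 12 pathway genes DE in the first batch, the same alternatives (300 values, added after the data were seen) gave 10 lost calls, 8 gained, all in the second batch, and 0 changes of sign. The cause of these changes was not tested. GDF5 and GDF6 lay near the lower limit of detection, where few reads limit precision.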

Other observations

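Unstimulated lines differed from one another in the members to unequal degrees. In the 5 controls of the first batch the highest library exceeded the lowest by 2.02 times for GREM1, 3.86 times for INHBA, 3.88 times for BMP4 and 4.38 times for BMP2. The corresponding ratios were 5.46 for FST, 5.47 for BAMBI, 7.17 for BMP6 and 7.70 for GDF6. In the 3 controls of the second batch BMP6 and BAMBI had the narrowest ranges, with ratios of 1.74 and 1.77, and GREM1 spanned a ratio of 4.14. With IL-1β the ratio of GREM1 was 2.05 over lines 1 to 5 and 1.50 over lines 6 to 8, and that of BMP4 was 1.56 and 1.50. These are ranges over 3 or 5 lines, and no test was made of them.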
